A study of Homo sapiens with 2 samples.

Results

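The annexins measured here are 10 genes of the human family of calcium-dependent, phospholipid-binding proteins: ANXA1, ANXA2, ANXA3, ANXA4, ANXA5, ANXA6, ANXA7, ANXA9, ANXA11 and ANXA13. A member was a gene for which a transcript cluster (the set of probes that the array summarises as a gene) carried that symbol alone. Each of the 10 had 1 such cluster, of 18417 genes with a single symbol in all. The family was chosen by a reading of the differences between these same 2 arrays, in which ANXA13 already stood among the largest decreases, so the counts below describe the family and support nothing about it. Expression came from 2 Affymetrix Human Gene 1.0 ST arrays of ACHN, an established line from a human renal carcinoma, called clear cell in its labels. Cells of 1 array carried a short hairpin RNA (shRNA) against Kindlin-2, the integrin adaptor encoded by FERMT2, and cells of the other array a control shRNA. Both cultures were grown with G418, a drug that selects transfected cells, and the labels do not say whether either was a single clone or a pool. The study's comparison was of Kindlin-2-depleted with control cells. With 1 array a group (n = 1) there was no replicate, so no value below has an error or a p-value, and each difference describes these 2 arrays only.

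Annexins share a core of repeats that bind calcium and acidic phospholipids on the side that faces the membrane. They differ in a variable head at the amino terminus that binds partner proteins. Through these contacts they organise membrane domains, link membranes to actin, take part in vesicle traffic and help to reseal torn plasma membrane. In kidney tubule epithelium several members lie beneath the apical or basolateral membrane.

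FERMT2 had a log2 value of 8.26 in the Kindlin-2 shRNA array and 9.37 in the control array, lower in the direction of the label. Over all clusters the median log2 value was 6.53 and 6.51, and Pearson's r between the arrays was 0.988 across clusters, which are not replicates. A gene passed the filter on dim genes when its higher value reached 6.52, the median of all values, and 11822 genes did. Among these, the log2 difference had an SD of 0.34 to 0.47, depending on which of 10 bins of brightness was taken. This spread holds both array noise and real differences, and it is the only yardstick of scatter that these data give. The values are on a relative scale set by each cluster's probes, so they are compared between arrays within a gene and never between genes. The renal and epithelial markers PAX8 (11.29 and 11.43), KRT8 and KRT19 were bright on both arrays. The proximal tubule receptors LRP2 and CUBN and the water channel AQP1 were below the filter floor on both. All 5 endothelial markers and 5 of 6 leukocyte markers measured were below the floor, PTPRC at 3.54 and 3.53. Of 6 fibroblast markers, DCN and LUM were below the floor on both arrays, and the other 4, among them COL1A1 (7.45 and 7.28), reached it on at least 1 array.

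Of the 10 annexins, 9 passed the filter, and 4 of these were higher and 5 lower in the Kindlin-2 shRNA array. ANXA6 was at least 1.5-fold higher, where 5.10% of all genes that passed were. ANXA13 was at least 1.5-fold lower, where 5.23% of all genes were. The other 7 that passed the filter differed by between 1.07-fold and 1.34-fold. The median log2 difference of the 9 was -0.10, beside -0.02 over all genes that passed. As deposited, ANXA13 was also past 2-fold and 3-fold, where 1.26% and 0.372% of all genes were lower by that much. No annexin was 2-fold or 3-fold higher, where 1.41% and 0.338% of all genes were.

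**Figure D1:**
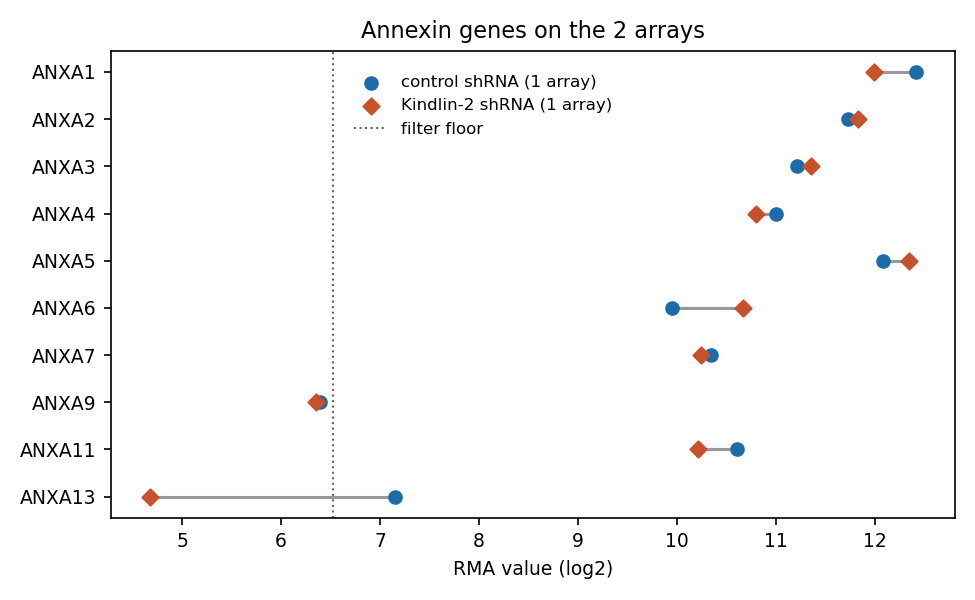
Log2 RMA value (x axis) of each annexin gene (y axis) on the control shRNA array (circles) and the Kindlin-2 shRNA array (diamonds), 1 array each, joined by a line; the dotted line is the filter floor of 6.52. The line is longest for ANXA13, from 7.15 down to 4.67, and next longest for ANXA6, from 9.95 up to 10.66.

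ANXA13, often regarded as the founder gene of the vertebrate family, encodes a myristoylated annexin of intestinal and renal epithelium that takes part in apical membrane traffic. Its log2 value was 7.15 in the control array and 4.67 in the Kindlin-2 shRNA array. The deposited values differed by -2.48, or 5.57-fold, and 7 genes that passed had a larger decrease. The control value stood above the filter floor and the Kindlin-2 shRNA value below it. ANXA13 thus passed the filter through its control value alone, and since the deposited values carry no detection call, its level in the Kindlin-2 shRNA array cannot be told from absent. With that value raised to the floor the difference was -0.63, or 1.55-fold, so the size of the decrease rests on a dim value. This setting could not reverse the direction, because the control value stood above the floor. The 1.5-fold call was only just kept, and a somewhat higher floor would remove it. With the filter at the upper quartile of all values ANXA13 no longer passed. The SD of the difference over genes of like brightness was 0.47. Its 50 nearest measured genes on chromosome 8 had a median difference of -0.04, and with that subtracted ANXA13 was at -2.43. The epithelial adhesion protein E-cadherin (CDH1) had 11.60 in the control and 9.64 in the Kindlin-2 shRNA array, a difference of -1.96 in the same direction. The epithelial adhesion molecule EPCAM, with 10.30 and 10.55, differed by 0.25 in the opposite direction. That value is from the brighter of its 2 clusters, and the other was not compared. Whether the cluster used lies at the EPCAM locus was not checked, so the direction for EPCAM is uncertain. Of the 10 renal epithelial and carcinoma markers that passed the filter, 3 were above 0 and 7 below. Among all 11822 genes that passed, 6285 were below 0. The 7 include KRT8 and KRT18 on chromosome 12, with a chromosome median of -0.21, and MET on chromosome 7, with -0.22. With these subtracted, KRT8 was at -0.33, KRT18 at -0.23 and MET at -0.03. The others, CDH1, KRT19, PAX2 and PAX8, lie on chromosomes with medians between -0.03 and 0.04. With their chromosome medians subtracted they were at -1.93, -0.40, -0.66 and -0.17. KRT18, like EPCAM, had 2 clusters, and the locus of the brighter was not checked. Whether any of these differences is linked to that of ANXA13 was not tested.

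ANXA6, whose protein carries a duplicated core and binds membranes at the cell cortex and on endosomes, was higher. Its log2 value was 9.95 in the control array and 10.66 in the Kindlin-2 shRNA array. The difference of 0.71 is 1.64-fold, against an SD of 0.35 at its brightness, and 393 genes had a larger increase. ANXA6 lies on chromosome 5 among genes that were themselves slightly higher, 35 of its 50 nearest measured genes being above 0 with a median of 0.16. Subtracting that median left 0.55, which is under 1.5-fold. ANXA6 was thus past the fold threshold as deposited and just under it relative to its neighbours.

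ANXA1 and ANXA11 were lower by less than 1.5-fold, each by more than the SD of 0.35 at its brightness. ANXA1, the anti-inflammatory lipocortin that glucocorticoids induce and that acts outside the cell on formyl peptide receptors, had 12.42 in the control and 11.99 in the Kindlin-2 shRNA array. The difference was -0.43, or 74.4% of the control level. The median of all genes on its chromosome, 9, was -0.31, and 38 of its 50 nearest genes were below 0. With their median of -0.26 subtracted, ANXA1 was at -0.17, within the SD. ANXA11, which has a long low-complexity head and tethers RNA granules to lysosomes, had 10.60 in the control and 10.21 in the Kindlin-2 shRNA array. Its difference was -0.39, and its neighbours on chromosome 10 had a median of -0.01, so that -0.38 remained after subtraction. The decrease of ANXA1 therefore shrank when set against its region and that of ANXA11 did not.

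ANXA7, or synexin, has a similar long head and lies on the same chromosome as ANXA11. It had 10.34 in the control and 10.24 in the Kindlin-2 shRNA array, a difference of -0.10. ANXA4, an annexin of secretory and tubular epithelia, had 11.005 in the control and 10.795 in the Kindlin-2 shRNA array, a difference of -0.21. Its 50 neighbours on chromosome 2 had a median of 0.08, and it was at -0.29 relative to them. Both genes differed by less than the SD at their brightness.

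ANXA2, ANXA3 and ANXA5 were slightly higher, all within the SD. ANXA5, which binds exposed phosphatidylserine and serves as a probe for dying cells, had 12.09 in the control and 12.35 in the Kindlin-2 shRNA array, a difference of 0.26. ANXA3, known from neutrophil granules and from epithelial tumours, had 11.21 and 11.36, a difference of 0.14. Both lie on chromosome 4, but the 50 genes around ANXA3 had a median of 0.21 and those around ANXA5 a median of 0.01. Relative to its neighbours ANXA3 changed sign, to -0.07, while ANXA5 was at 0.25. ANXA9, whose core has lost the typical calcium-binding residues, was dim on both arrays at 6.39 and 6.35 and did not pass the filter. In all, 6 of the 10 members, ANXA9 included, differed by less than the SD at their brightness and 4 by more. The share of all genes beyond that SD was not computed, so nothing is read from this count.

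**Figure D2:**
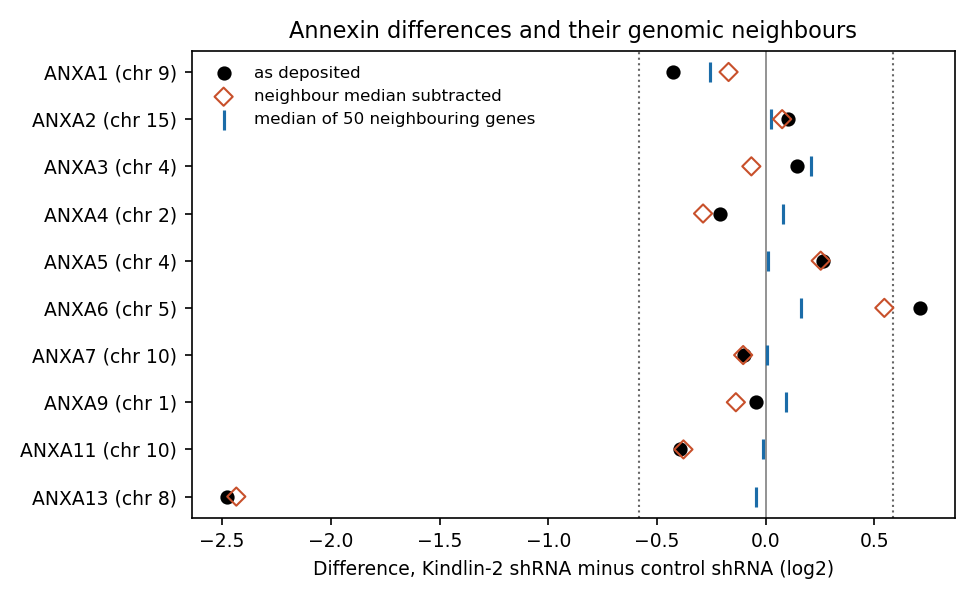
Log2 difference, Kindlin-2 shRNA minus control shRNA (x axis), of each annexin gene with its chromosome (y axis); filled circles are the deposited values, vertical ticks the median of the 50 nearest measured genes, open diamonds the difference left after that median is subtracted, and dotted lines mark 1.5-fold. ANXA13 stays near -2.4 either way, ANXA6 moves from 0.71 to 0.55, and ANXA1 from -0.43 to -0.17.

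ANXA2 binds S100A10 as a tetramer at the cell cortex and has processed pseudogenes of nearly the same sequence, which makes its array signal uncertain. Its own cluster had 11.72 in the control and 11.82 in the Kindlin-2 shRNA array, a difference of 0.10. The pseudogene cluster ANXA2P2 had 11.90 and 11.95, a difference of 0.06. ANXA2P2 lies on chromosome 9, where 43 of its 50 nearest genes were below 0 with a median of -0.34. ANXA2P1 had 8.27 and 8.70, a difference of 0.43, and ANXA2P3 was below the filter floor with a difference of 0.02. How far these clusters record ANXA2 transcripts was not tested. ANXA10, a gastric annexin that is no member of the list, was below the floor on both arrays, at 4.51 and 4.62.

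The start regions of the members differed in base composition. RefSeq promoter sequences (GRCh38.p14) were at hand for 9 of the 10 members, ANXA13 being the other, and the 250 bases before each start site were searched on both strands. The motifs were the TATA box (TATAAA), the CCAAT box (CCAAT), the GC box (GGGCGG), the AP-1 site (TGAGTCA), the TEAD site (GGAATG) and the E-box (CACGTG), and matches that shared bases were each counted. Over 35116 windows of all genes a match was found in 10.7%, 32.0%, 42.6%, 4.20%, 11.9% and 6.34%, in that order. ANXA1, ANXA2 and ANXA6 are shown because they are a member that was lower, a member near 0 and the member that was 1.5-fold higher as deposited, and capitals mark motif matches. The windows are chr9:73151615-73151864 on the plus strand for ANXA1, chr15:60397987-60398236 on the minus strand for ANXA2 and chr5:151157780-151158029 on the minus strand for ANXA6. None of the 3 overlaps an annotated gene.
ANXA1: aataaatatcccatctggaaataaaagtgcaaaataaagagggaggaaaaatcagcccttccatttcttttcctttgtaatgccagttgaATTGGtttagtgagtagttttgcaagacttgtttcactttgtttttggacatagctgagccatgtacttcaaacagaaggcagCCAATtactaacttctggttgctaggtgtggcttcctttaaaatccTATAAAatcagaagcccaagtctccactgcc
ANXA2: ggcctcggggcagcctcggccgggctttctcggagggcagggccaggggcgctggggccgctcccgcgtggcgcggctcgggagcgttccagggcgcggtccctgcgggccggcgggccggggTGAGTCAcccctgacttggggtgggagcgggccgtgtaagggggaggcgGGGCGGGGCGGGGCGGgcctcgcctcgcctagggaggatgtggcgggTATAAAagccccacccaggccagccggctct
ANXA6: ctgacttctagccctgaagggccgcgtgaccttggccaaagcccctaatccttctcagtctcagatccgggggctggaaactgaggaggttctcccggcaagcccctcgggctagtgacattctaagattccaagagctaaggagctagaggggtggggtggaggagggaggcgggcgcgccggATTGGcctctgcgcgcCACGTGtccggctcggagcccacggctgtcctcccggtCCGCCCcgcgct

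The ANXA1 window was 38.4% G and C with no CpG dinucleotide, and held 1 TATA box and 2 CCAAT boxes. The ANXA2 window was 78.0% G and C with 28 CpG dinucleotides, and held 3 GC boxes, 1 TATA box and 1 AP-1 site. The ANXA6 window was 65.6% G and C with 19 CpG dinucleotides, and held 1 GC box, 1 CCAAT box and 1 E-box. The median over all windows was 58.0% G and C. ANXA6 has a second start site inside the gene, and its single transcript cluster does not separate the starts. No TEAD site was matched in any window of the 9 members, which says only that these letters are not there. The matches are letters in a reference sequence, and no measurement here bears on whether a factor binds them.

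S100 proteins are a family of small, mostly calcium-binding proteins, several of which pair with annexin heads. They had a median difference of 0.04 over the 7 of 19 that passed the filter. None of the 7 was 1.5-fold higher or lower. With 5.10% of all genes higher and 5.23% lower by that much, so small a list need not hold any. S100A10, the partner of ANXA2, had a log2 value of 12.71 in the control and 12.70 in the Kindlin-2 shRNA array. S100A11, the partner of ANXA1, had 11.96 and 12.12, and S100A6 had 9.76 and 9.81. By their own clusters, ANXA2 and S100A10 transcripts each differed little between the arrays. The ANXA2 signal carries the pseudogene limit given above, and a cluster shared by SNU13 and ANXA2 differed by -0.36.

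Apart from the S100 proteins, 14 of 16 listed binding partners and receptors of annexins had a cluster with their symbol alone, and 8 passed the filter. Of these 8, 3 were at least 1.5-fold higher (5.10% of all genes) and none was lower by that much (5.23%), and the median difference was 0.12. The list is small and was chosen with earlier results of these data known, so nothing is read from this count. Dysferlin (DYSF), a membrane repair protein that binds ANXA1 and ANXA2, had 6.73 in the control and 8.27 in the Kindlin-2 shRNA array, 2.91-fold higher. Tissue plasminogen activator (PLAT), which ANXA2 with S100A10 holds at the cell surface, had 8.41 and 9.29, 1.84-fold higher. Cathepsin B (CTSB), which also binds that tetramer, had 10.17 and 10.96, 1.74-fold higher.

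The remaining partners lay within 1.5-fold. Sorcin (SRI), which binds ANXA7, had 10.19 in the control and 9.73 in the Kindlin-2 shRNA array, a difference of -0.46. It lies on chromosome 7, where its 50 neighbours had a median of -0.22. The scaffold AHNAK differed by 0.02 and the ubiquitin ligase NEDD4, a partner of ANXA13, by 0.21. The ANXA1 receptors FPR1 and FPR2 were below the filter floor on both arrays, FPR1 at 5.11 and 5.08 and FPR2 at 4.10 and 4.39. FPR3 was dim as well, so all 3 formyl peptide receptors were below the floor.

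Genes of plasma membrane repair, the process in which ANXA1, ANXA2, ANXA5 and ANXA6 gather at a wound, had a median difference of -0.03 over 24 that passed. Their counts past 1.5-fold, 1 in each direction, were near the shares of all genes. DYSF was the single gene at least 1.5-fold higher. The caveolar coat protein CAVIN1 was the single gene at least 1.5-fold lower, at 10.61 in the control and 9.92 in the Kindlin-2 shRNA array. The calpains and the ESCRT-III subunits measured alone (CHMP1A, CHMP2A, CHMP2B, CHMP4B and CHMP4C) all lay within 1.5-fold. DYSF stands in 3 of the lists used here, so it is a single observation and not several.

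Proteins with C2 domains, the other large class of calcium-dependent membrane binders, differed in both directions. Of 20 that passed the filter, 2 passed 1.5-fold upward (5.10% of all genes) and 3 downward (5.23%), and the median was -0.20. This list too was chosen with earlier results of these data known, so nothing is read from these counts. SYT11, a synaptotagmin, had 7.96 in the control and 9.13 in the Kindlin-2 shRNA array, 2.25-fold higher beside DYSF. The Ras GTPase-activating protein RASAL1 was 1.75-fold lower, the copine CPNE2 1.70-fold and the synaptotagmin SYT1 1.54-fold. RASAL1 and SYT1 are chromosome 12 genes, and the median over that chromosome was -0.21. With the neighbour medians subtracted RASAL1 was at -0.61, still past 1.5-fold, and SYT1 at -0.46, no longer past it.

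**Figure D3:**
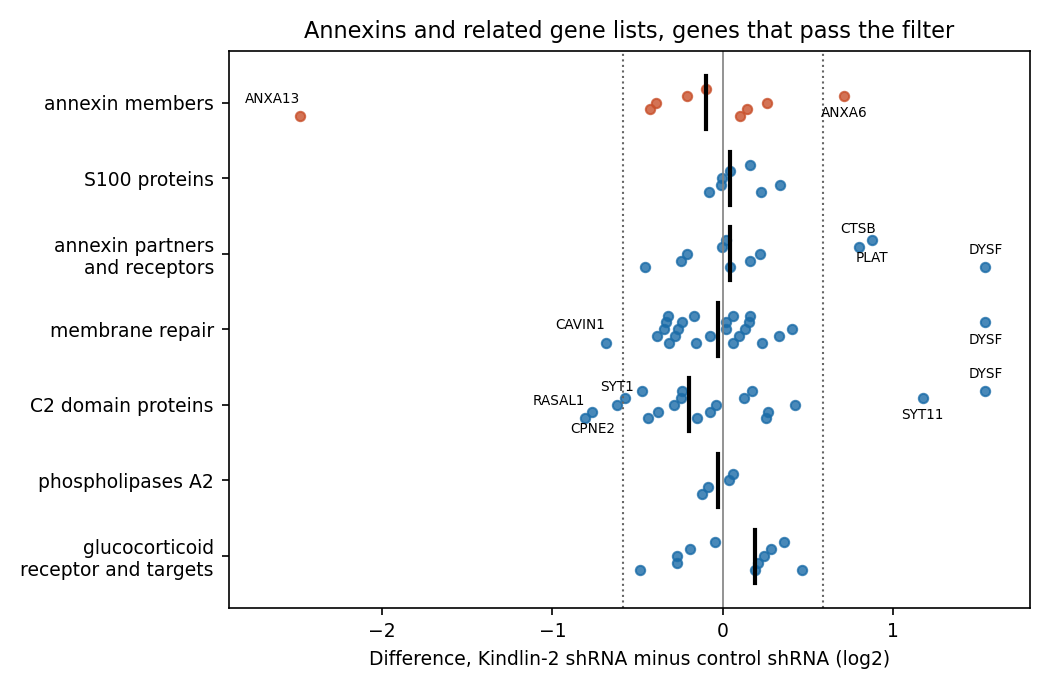
Log2 difference, Kindlin-2 shRNA minus control shRNA (x axis), of genes that passed the filter in each list (rows); points are genes, thick bars the list medians, dotted lines mark 1.5-fold and genes past it are named. The annexin row has ANXA13 at -2.48 and ANXA6 at 0.71, and the S100 row has no gene past 1.5-fold.

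The lists of phospholipases A2 and of the glucocorticoid receptor and its targets, both tied to ANXA1, held no gene past 1.5-fold. With 5.10% of all genes higher and 5.23% lower by that much, lists this small need not hold any. ANXA1 was first described as an inhibitor of phospholipase A2, and of 16 such enzymes measured 4 passed the filter, with a median of -0.03. The cytosolic enzyme PLA2G4A was below the floor on both arrays, at 3.93 and 4.34. Among the glucocorticoid receptor and its targets 11 passed, with a median of 0.19. The receptor NR3C1 had 8.60 in the control and 8.12 in the Kindlin-2 shRNA array, a difference of -0.49. Of the other 10 genes, 6 were above 0 and 4 below.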

How the data were processed

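RNA of 2 cultures was measured on 1 array each. The deposited values are log2 values made by the authors with RMA (background correction, normalisation between arrays and probe summary) with the software Affymetrix Expression Console (version 1.4.1), per the submitters' processing notes. Not given in the sources used here are the library file, the build and which arrays were normalised together. RMA compresses differences between dim values. Symbols were those of GEO's platform annotation, updated through Entrez IDs to RefSeq (GRCh38.p14): of 33297 clusters, 19460 had 1 symbol, 1754 several and 12083 none, and 19429 of the first were matched. Only clusters with 1 symbol were used, and the brightest cluster stood for a gene. The filter, the 1.5-fold threshold, the brightness SD and the neighbour median (50 genes that passed the filter, nearest by RefSeq start) are defined in the report.

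No test was possible with 1 array a group. Python 3.11.15, pandas 2.3.3 and statsmodels 0.14.6 (lowess, fraction 0.3) were used, and counting and neighbour subtraction were tested on simulated data. The members and the gene lists were chosen with earlier results of these data known. The genes named were all members, the other annexins, FERMT2, 11 fixed partners, and up to 3 genes per direction past 1.5-fold from each list. FPR3, the CHMP genes and the cell type markers were named to describe their lists, after their values were seen. The number of arrays limits the precision.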

Additional observations from a re-analysis of the deposited data

How the results depend on the processing

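No paired analysis was possible because each group held 1 array and the labels give no replicate numbers; no array could be left out. With 1 array a group, 1 SD of the difference over genes of like brightness (0.35 at the median of the members) stood in for replicate spread. Over 6 settings (each array centred on its median, repeated quantile normalisation, a loess correction, the mean over clusters, and the chromosome or neighbour median subtracted) all 60 member values moved by less than this, and ANXA3 alone changed sign, with the neighbour median. The mean over clusters could not move any of the 10 members, because each had 1 cluster. Centring moved all genes by the same small amount, so these 2 settings say little about stability. ANXA13 ranged from -2.50 to -2.43, ANXA6 from 0.55 to 0.71, ANXA11 from -0.41 to -0.38 and ANXA1 from -0.46 to -0.12. The count of members higher was 1 as reported and 0 at 2-fold, at 3-fold and with neighbour medians subtracted, where ANXA6 fell short of the threshold. The count lower was 1 in every setting tried, except for the filter at the upper quartile of all values, where it was 0 because ANXA13 no longer passed. The median of the members lay between -0.12 and 0.0007, the latter with that filter (8 members), and the mean was -0.27 because of ANXA13. With values below the filter floor raised to it, a setting chosen after seeing the data, both counts stayed at 1 and ANXA13 was at -0.63, short of 2-fold. The lack of replicates, detection calls and scanner files limits every value.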

Other observations

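Transcript clusters that carry several gene symbols entered no comparison, and a few of them hold annexins. The 3 clusters shared by ANXA8 and ANXA8L1, near-identical genes of chromosome 10, differed by -0.50, -0.50 and -0.25 on the log2 scale, 6.97 against 6.47 (control against Kindlin-2 shRNA) in the brightest of them. The 2 clusters at -0.50 had nearly the same values on each array, so they may not be separate measurements. Both were below the filter floor in the Kindlin-2 shRNA array. The cluster at -0.25 was below it on both arrays, at 6.27 in the control and 6.02 in the Kindlin-2 shRNA array. A cluster shared by SNU13 and ANXA2 differed by -0.36, in the opposite direction to the cluster of ANXA2 alone (0.10). The calcium sensor PDCD6, a partner of ANXA7 and ANXA11, was measured in clusters shared with PDCD6P1 (-0.21) and AHRR (-0.07). The ANXA2 receptor gene ANXA2R was below the filter floor on both arrays, with 4.37 in the control and 4.70 in the Kindlin-2 shRNA array.

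Among the renal epithelial and renal carcinoma markers that passed the filter, the cadherin CDH6 of the proximal tubule was at 7.32 in the Kindlin-2 shRNA array and, at 6.41, below the floor in the control. With the latter raised to the floor CDH6 was 1.74-fold higher. The kidney lineage factor PAX2 was 1.58-fold lower as deposited, and at -0.55 on the log2 scale, under 1.5-fold, with the median of its 50 neighbours subtracted. The fibroblast marker PDGFRB was at 7.08 in the control and, at 6.31, below the floor in the Kindlin-2 shRNA array. With the latter raised to the floor it was 1.47-fold lower, which is under 1.5-fold. COL1A1 was above the floor on both arrays and COL1A2 and COL3A1 reached it on 1 array each, all within 1.5-fold.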
